A study of Mus musculus with 6 samples.

Results

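The D cyclins, the kinases they activate and the inhibitors of those kinases form a set of 9 genes, taken by symbol from the 19436 genes of the deposited expression table. They are the D cyclins Ccnd1, Ccnd2 and Ccnd3, the kinases Cdk4 and Cdk6, the Cip/Kip inhibitors Cdkn1a (p21) and Cdkn1b (p27), and the Ink4 inhibitors Cdkn2c (p18) and Cdkn2d (p19). All 9 were found and all 9 passed the filter on low values. RNA came from C57BL/6 mouse fetal liver at the E14.5 embryonic stage, from cells sorted as erythroid precursors by medium CD71, the transferrin receptor, and lack of Ter119, an antigen of maturing red cells. Libraries of wild type embryos (3) were compared with libraries of -77-/- embryos (3), in which both copies of the -77 enhancer of Gata2 are lost. No treatment or other allele is recorded, and the labels do not say whether each library came from its own embryo, so each p-value covers only the spread among these libraries, which may be technical.

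D cyclins are made in response to growth factor signals and bind Cdk4 or Cdk6, and the active kinase phosphorylates the retinoblastoma protein, which releases E2F factors and lets a cell enter S phase. Ink4 inhibitors bind Cdk4 and Cdk6 themselves, whereas Cip/Kip inhibitors bind cyclin and kinase together and also block Cdk2. In red cell precursors the pathway is known for setting how many divisions come before the final exit from the cell cycle. Cyclin D3 and Cdk6 have described roles there, and p27 and p18 are described to accumulate as precursors leave the cycle.

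Recovered reads per library ran from 16516338 to 20468899, and between 14847 and 18133 genes had a read. Gata2 itself was low, at 61.5 to 128 normalized reads in wild type and 26.2 to 74.2 in -77-/- (log2 fold change -1.10, limma adjusted p = 0.183). Xist was at 41877 normalized reads in wild type replicate 2 and at 28.5 to 63.2 in every other library, and every member that passed the test also passed without that library. In wild type the sum of erythroid markers, the labelled cell type, exceeded that of every other list below. In -77-/- it was below the sums of monocyte and macrophage, granulocyte, and stem and early progenitor markers. Each list holds different genes, so this order is rough. Tfrc, which encodes CD71, had the highest mean of the erythroid list in both genotypes (14576 in wild type and 3307 in -77-/-). Summed over 14 erythroid markers, levels were 39307 to 41809 normalized reads in wild type and 3508 to 7688 in -77-/-. Of these 13 were lower, and none was at 0, which here means 0 in all 3 libraries of a genotype. Over 12 monocyte and macrophage markers they were 1707 to 2645 and 30735 to 37972, with 11 higher and none at 0. Over 11 granulocyte markers they were 14416 to 25126 and 44876 to 48899. Mpo made up most of that sum (means 11805 in wild type and 38959 in -77-/-). It was higher, as were Prtn3, Ctsg and Csf3r (4), while S100a8, S100a9, Ngp and Camp were lower (4). Over 8 stem and early progenitor markers they were 4842 to 5567 and 10841 to 11388. Of 7 tested 4 were higher and 1 lower, and Procr was at 0 in wild type. Most of this sum came from Cd34 (means 291 and 7139) and Kit (4596 and 1939), which moved in opposite directions. Over 11 lymphoid markers the sums were 807 to 1054 and 2251 to 3858, with 6 of 10 tested higher. The sums were 720.4 to 2119.6 and 59.8 to 81.3 for mast cell and eosinophil markers. For megakaryocytes they were 419 to 717 and 480 to 664, with 1 of 6 tested higher, 2 lower, and Gp1bb at 0 in -77-/-. For hepatocytes they were 66.9 to 209.7 and 226 to 1270.4, with Apoa2 and Fgb at 0 in wild type. Of 5 hepatocyte markers tested only Trf was called, as higher (means 21.4 and 268). For endothelium they were 114 to 312 and 463 to 564. Of 4 endothelial markers tested only Pecam1 was called, as higher (means 138 and 449). Apart from the megakaryocyte sum, each of these sums was in separate ranges for wild type and -77-/-. Erythroid and mast cell and eosinophil sums were lower in -77-/- and the other separate sums higher. In the mast cell and eosinophil list 3 of 5 were lower, the eosinophil genes Prg2, Epx and Ear1. Cpa3 (means 28.0 and 29.2) and Mcpt8 (4.87 and 23.2) did not pass. The part of all these cell types in the members' values was not tested. In bulk RNA, more cells of a type and more RNA per cell cannot be told apart.

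Across all 15821 genes tested, 16.9% were called higher in -77-/- and 15.2% lower. Among the 9 members 5 were higher, none was lower and 4 did not pass (limma on log2(value + 1), Benjamini-Hochberg adjusted p of 0.05 over all genes). At an unadjusted p under 0.05 the lower count was 0 as well, as it was in edgeR and DESeq2. The 5 that rose were Ccnd1, Ccnd3, Cdkn1a, Cdkn1b and Cdkn2d. Ccnd2, Cdk4, Cdk6 and Cdkn2c did not pass. The median log2 fold change of the members was 0.83, against 0.10 for all genes tested. In those 5 genes, and in no other member, every -77-/- library lay above every wild type library, a pattern that 25% of all genes tested had, while 21.4% had the opposite one. The authors' deposited table also called 5 members higher and 0 lower, where it called 16.4% of 17124 genes higher and 14.7% lower.

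**Figure D1:**
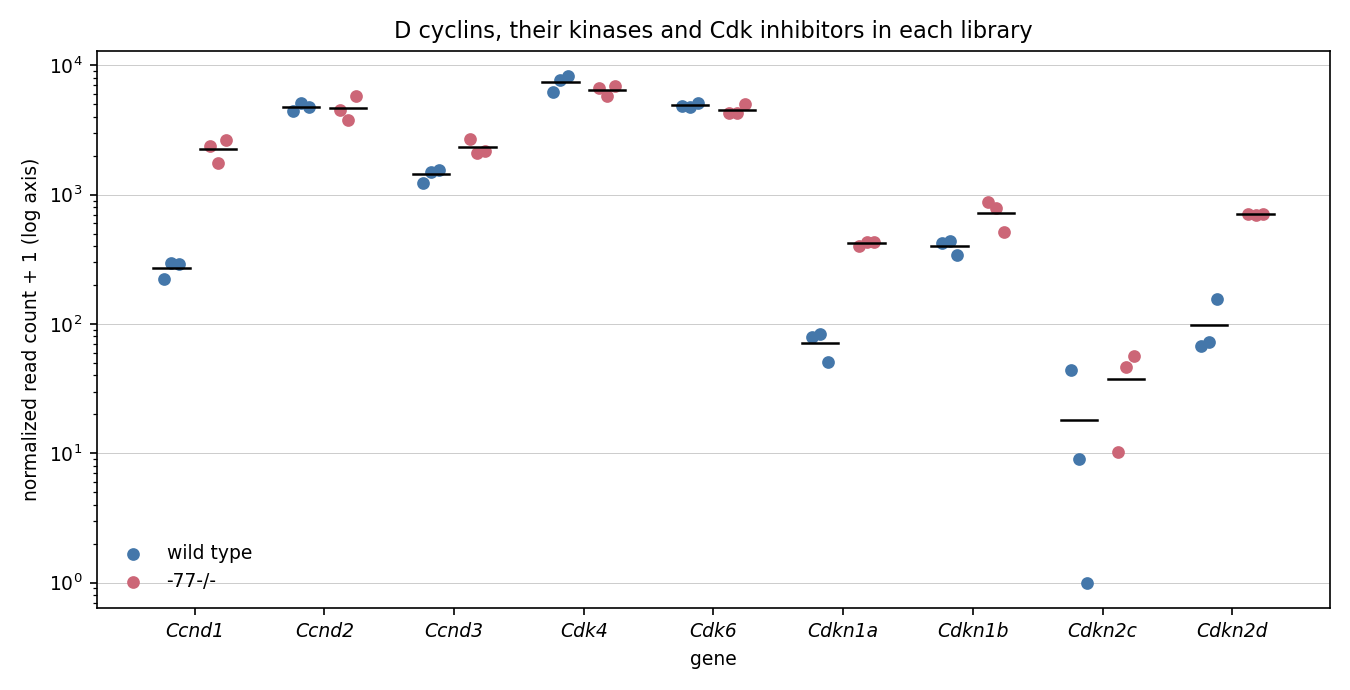
Normalized read count plus 1 (log axis) of each gene in each library, blue for the 3 wild type and red for the 3 -77-/- libraries, with a black line at the mean. The colours separate for Ccnd1, Ccnd3, Cdkn1a, Cdkn1b and Cdkn2d, and they overlap for Ccnd2, Cdk4, Cdk6 and Cdkn2c.

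Promoter windows were read from RefSeq (GRCm38.p6) for the 250 bases before each annotated start, and 7 of the 9 members had an entry, with 10 starts. The windows shown are those of Cdkn1a, which rose, and Cdk4, which did not pass, because they hold motifs that few promoters hold. The Cdkn1a window at the first of its 2 starts is chr17:29090729-29090978, plus strand, and that of Cdk4 is chr10:127063285-127063534, plus strand. Capitals mark a p53 element in Cdkn1a and E boxes (CACGTG) in Cdk4.
Cdkn1a: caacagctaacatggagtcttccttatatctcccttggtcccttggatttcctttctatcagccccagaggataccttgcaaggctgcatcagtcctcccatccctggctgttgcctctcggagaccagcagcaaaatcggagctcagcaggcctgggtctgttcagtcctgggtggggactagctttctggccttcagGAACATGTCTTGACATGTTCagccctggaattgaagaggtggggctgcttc
Cdk4: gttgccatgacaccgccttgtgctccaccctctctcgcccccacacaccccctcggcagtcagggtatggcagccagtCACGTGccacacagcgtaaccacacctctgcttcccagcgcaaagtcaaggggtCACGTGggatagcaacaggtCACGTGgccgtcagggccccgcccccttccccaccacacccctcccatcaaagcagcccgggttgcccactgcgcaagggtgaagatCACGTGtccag
The p53 element was searched as 2 abutting repeats with at most 1 mismatch, on both strands, and 25 of 32851 promoter windows (0.0761%) hold one. The Cdkn1a window holds 1, which begins at position -51 from the start, and no other member's window holds one. E boxes occur in 6.02% of windows. The Cdk4 window holds 4, one of 7 windows (0.0213%) with 4 or more, and the Cdk6 window holds 1. GC boxes (GGGCGG, 32.7% of windows) occur in Ccnd3, Cdk4, Cdkn1b, Cdkn2c, Cdkn2d and the second start of Cdkn1a. GATA motifs (AGATAA or TGATAA, or either with a final G, 26.5%) occur once, in the first Cdkn1a window. No member's window holds the E2F motif (TTTCCCGC, with C or G allowed at the fourth and the fifth base, 1.86%), the PU.1 motif (GAGGAAGT, 2.44%), the interferon-stimulated response element (2.98%) or the cyclic AMP element (TGACGTCA, 1.55%). All were searched on both strands. A match describes letters in this window and no binding was measured.

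Of the D cyclins, Ccnd1 rose most, Ccnd3 rose moderately and Ccnd2 did not pass. Ccnd1 (ENSMUSG00000070348), the cyclin D most tied to growth factor signals in many tissues, had 221, 292 and 292 normalized reads in the wild type libraries (replicates 1, 2 and 3, the order used below) and 2361, 1744 and 2650.1 in the -77-/- libraries. The lowest -77-/- library stood far above the highest wild type library. Means were 269 ± 40.8 and 2252 ± 463 (SD, n = 3 per genotype here and below), an 8.39-fold ratio. The log2 fold change was 3.05 (SE 0.19, 95% interval 2.64 to 3.47, limma adjusted p = 2e-08), and 1031 tested genes had a higher one. It lay between 2.92 and 3.23 over 16 other settings, passing in all of them. In GRCm38, 21.6% of the 50-base stretches in Ccnd1 transcripts also lie in transcripts of another gene, Oraov1, on the opposite strand, and without a stated strand setting the reads of both cannot be told apart. Oraov1 had 247 ± 66.2 and 185 ± 26.3 normalized reads (log2 fold change -0.39, limma adjusted p = 0.365), so its own mean was not higher in -77-/-.

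Ccnd2 (ENSMUSG00000000184), a cyclin D of blood progenitors, had 4432, 5078 and 4749 normalized reads in wild type and 4519, 3788 and 5747 in -77-/-. The -77-/- libraries lay on both sides of the wild type libraries. Means were 4753 ± 323 and 4685 ± 989.6, and the log2 fold change was -0.04 with a 95% interval of -0.33 to 0.25 (SE 0.14, limma adjusted p = 0.848). Of its stretches 6.31% also lie in transcripts of other genes. Its sign turned without wild type replicate 2 (0.009) and without -77-/- replicate 2 (0.10).

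Ccnd3 (ENSMUSG00000034165), the cyclin D with a described part in the last divisions of red cell precursors, had 1239, 1499 and 1558 normalized reads in wild type and 2670.1, 2112 and 2174 in -77-/-. All -77-/- libraries were higher, with replicate 1 the highest. Means were 1432 ± 169 and 2319 ± 306, a log2 fold change of 0.69 (SE 0.14, 95% interval 0.40 to 0.99, limma adjusted p = 0.0013), and it passed in all 16 other settings. Of its stretches 5.39% also lie in transcripts of other genes, 46 in all. Among these is Bysl on the opposite strand, whose exons overlap those of Ccnd3 by 361 bases, and Bysl fell from 1738 ± 119 to 877 ± 171.

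Divided by exon length, which makes levels only roughly comparable between genes, the makeup of the D cyclins differed between genotypes. On this scale (normalized reads per kb of exon) Ccnd1 made up 7.13%, 8.04% and 8.32% of the summed D cyclin level in wild type and 39.0%, 36.5% and 39.6% in -77-/-. Ccnd2 made up 71.4%, 69.9% and 67.8% in wild type and 37.3%, 39.7% and 43.0% in -77-/-. The ranges of both genes lay far apart between genotypes, with Ccnd1 going from the smallest share to one beside that of Ccnd2 on this scale. Not divided by length, the mean shares in -77-/- were 24.2% for Ccnd1 and 50.4% for Ccnd2. For Ccnd3 the mean share was 22.5% ± 1.25 and 21.6% ± 3.62, and libraries overlapped. The summed level per kb went from a mean of 725 ± 58.9 to 1240.3 ± 207.5, which is 1.71 times as much, and it was higher in each -77-/- library than in any wild type library.

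Apart from the 1 added to each value, ratios within a library do not depend on its depth. The log2 ratio of Ccnd1 to Ccnd2 (normalized reads) was -4.32, -4.11 and -4.02 in wild type and -0.94, -1.12 and -1.12 in -77-/-, a difference of 3.09. That of Ccnd1 to Ccnd3 went from a mean of -2.42 to -0.06, a difference of 2.36, and that of Ccnd2 to Ccnd3 from 1.73 to 1.00, a difference of -0.73. No library of one genotype overlapped the other in these 3 ratios. Each had p = 0.1 (two-sided exact permutation test, 0.15 adjusted over 6 ratios), the smallest p that 3 against 3 libraries can give, so the threshold could not be reached.

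**Figure D2:**
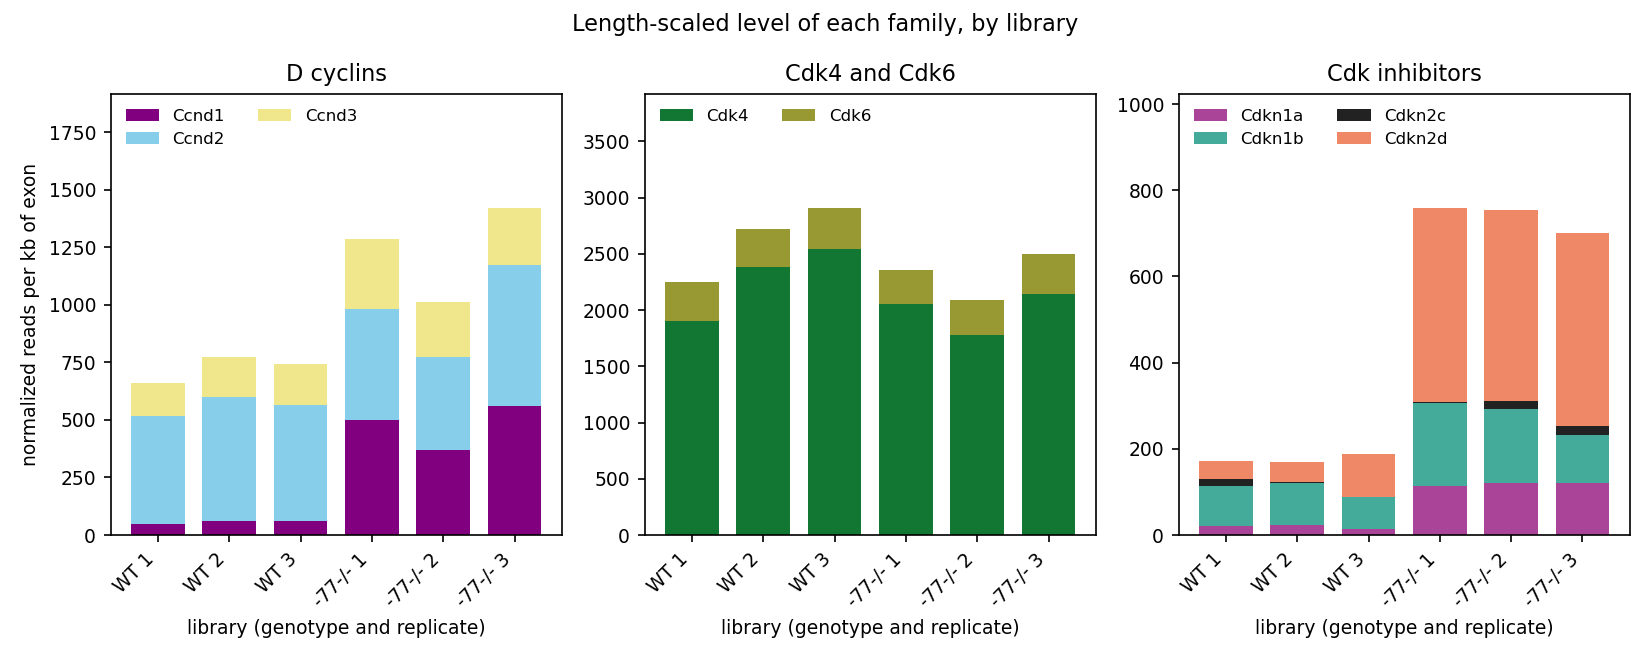
Normalized reads per kb of exon (linear axes from 0) in each of the 6 libraries, stacked by gene within the D cyclins, within Cdk4 and Cdk6, and within the 4 inhibitors. The Ccnd1 and Cdkn2d segments are much taller in the 3 -77-/- libraries, while the Cdk4 and Cdk6 stacks of both genotypes overlap.

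The kinases differed by less than the spread between libraries could resolve. Cdk4 (ENSMUSG00000006728) had 6182, 7729 and 8253 normalized reads in wild type and 6673, 5779 and 6958 in -77-/-. Wild type replicate 1 lay among the -77-/- libraries. Means were 7388 ± 1077 and 6470.2 ± 615, a log2 fold change of -0.19 with a 95% interval of -0.44 to 0.07 (SE 0.12, limma adjusted p = 0.259). Of its stretches 17.0% also lie in transcripts of 67 other genes. Among these is Tspan31 on the opposite strand, whose exons overlap those of Cdk4 by 641 bases, and Tspan31 had 608 ± 159.9 and 847 ± 66.8 normalized reads (log2 fold change 0.51, limma adjusted p = 0.0673).

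Cdk6 (ENSMUSG00000040274), the D cyclin partner prominent in blood cells, had 4817, 4778 and 5135 normalized reads in wild type and 4249, 4279 and 5041 in -77-/-. Replicates 1 and 2 of -77-/- were lowest, and replicate 3 lay within the wild type range. Means were 4909.7 ± 196 and 4523 ± 449, a log2 fold change of -0.12 with a 95% interval of -0.35 to 0.10 (SE 0.11, limma adjusted p = 0.406). Of the Cdk6 stretches 3.32% also lie in transcripts of other genes, 425 in all. The intervals of both kinases exclude a change of 1 on the log2 scale. Per kb of exon Cdk4 was the highest member in both genotypes, at 2274 ± 331 in wild type and 1991 ± 189 in -77-/-, and Cdk6 stood at 351 ± 14.0 and 323 ± 32.1. Their log2 ratio within a library, Cdk6 to Cdk4, was -0.58 ± 0.19 and -0.52 ± 0.12 (difference 0.06, two-sided exact permutation p = 0.8, 0.8 adjusted over 6 ratios).

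Both Cip/Kip inhibitors rose, Cdkn1a about 6-fold and Cdkn1b by less than 2-fold. Cdkn1a (ENSMUSG00000023067), the classical p53 target that stops Cdk2 and can stabilise cyclin D with Cdk4, had 77.9, 81.8 and 50.1 normalized reads in wild type and 403, 432 and 425 in -77-/-. The -77-/- libraries were close together and all far above wild type. Means were 69.9 ± 17.3 and 419.8 ± 15.2, a ratio of 6.00. The log2 fold change was 2.60 (SE 0.33, 95% interval 1.90 to 3.30, limma adjusted p = 2.2e-05), between 2.38 and 2.73 over 16 other settings, in all of which it passed. Of its stretches 8.49% also lie in transcripts of other genes, 584 in all, and how reads from them were assigned is not given in the sources used here. For Cdkn1b and both Ink4 genes the share was 0%.

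Cdkn1b (ENSMUSG00000003031), which accumulates in many cells that leave the cycle, had 421, 440.0 and 341 normalized reads in wild type and 876, 783 and 514 in -77-/-. Groups did not overlap, but -77-/- replicate 3 stood nearer to wild type than to the other two. Means were 401 ± 52.8 and 724 ± 188, a log2 fold change of 0.83 (SE 0.23, 95% interval 0.34 to 1.31, limma adjusted p = 0.0112). The call was lost when -77-/- replicate 1 (adjusted p = 0.0654 in limma) or -77-/- replicate 2 (0.0594) was left out, and in limma without a trend and robust variances (0.0793), with adjusted p from 0.0046 to 0.0793 over 16 settings. The log2 ratio of Cdkn1a to Cdkn1b was -2.42, -2.41 and -2.74 in wild type and -1.12, -0.86 and -0.27 in -77-/-. It differed by 1.77 with no overlap (two-sided exact permutation p = 0.1, 0.15 adjusted over 6 ratios).

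The Ink4 inhibitors were measured at unequal precision: Cdkn2d rose about 7-fold, and Cdkn2c was low and varied widely within each genotype. Cdkn2d (ENSMUSG00000066860 in the table, an identifier that GENCODE M21 lacks, so its length was taken by symbol) had 66.6, 71.8 and 155 normalized reads in wild type and 708, 698 and 703 in -77-/-. Wild type replicate 3 was about 2-fold above the other wild type libraries, and all -77-/- libraries were several-fold higher still. Means were 97.8 ± 49.6 and 703 ± 4.84, a ratio of 7.18. The log2 fold change was 2.94 (SE 0.32, 95% interval 2.25 to 3.63, limma adjusted p = 5.3e-06), and 3.33 without wild type replicate 3. It passed in all 16 other settings.

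Cdkn2c (ENSMUSG00000028551), an inhibitor described in the cell cycle exit of red cell precursors, had 43.2, 7.98 and 0 normalized reads in wild type and 9.15, 45.7 and 55.5 in -77-/-. These rest on 46, 8 and 0 recovered reads in wild type and 9, 47 and 65 in -77-/-. Libraries overlapped, with wild type replicate 1 near the highest -77-/- libraries. The log2 fold change was 2.03 with a 95% interval of -0.90 to 4.95 (SE 1.37, limma adjusted p = 0.281), so a difference was not resolved from the spread between libraries. In the authors' deposited table it was 1.11, with an adjusted p of 0.581, and over 15 settings it ran from 0.59 to 3.32. With 1 added to each value, the log2 ratio of Cdkn2c to Cdkn2d ranged from -7.29 to -0.61 in wild type and from -6.13 to -3.64 in -77-/-. The difference was -0.92 (two-sided exact permutation p = 0.8). The -7.29 is wild type replicate 3, where Cdkn2c was at 0, so it depends on the added 1.

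**Figure D3:**
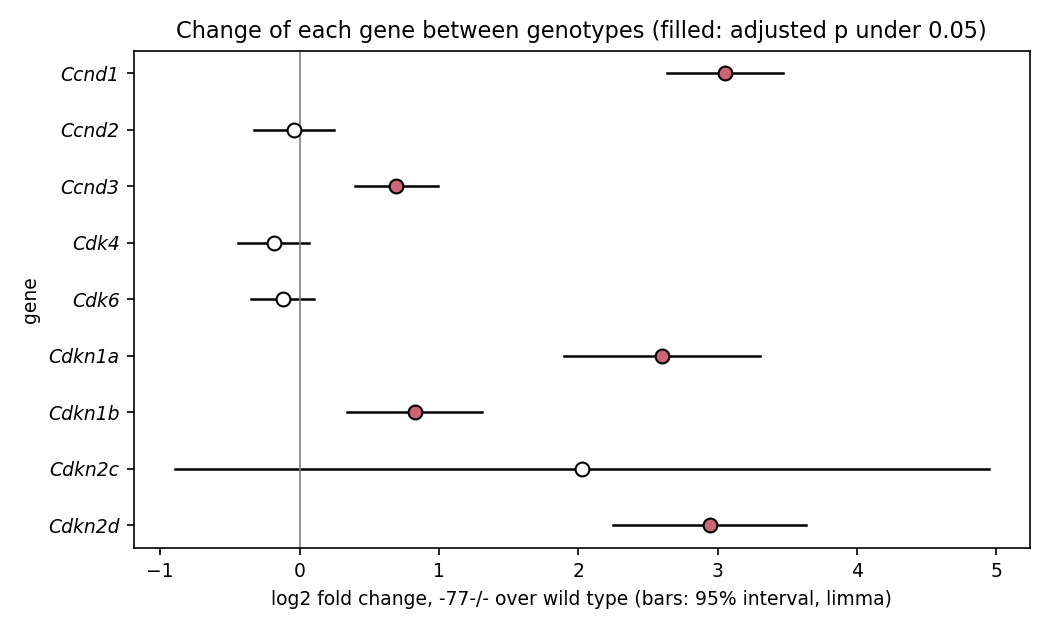
Log2 fold change of each gene, -77-/- over wild type, with its 95% interval from limma, filled where the adjusted p is under 0.05. The 5 filled points lie to the right of 0 with intervals that exclude it, and the interval of Cdkn2c is the widest, from -0.90 to 4.95.

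Per kb of exon, the 4 inhibitors together went from 176 ± 9.99 to 737 ± 32.8, a ratio of 4.19, and each -77-/- library lay above each wild type library. Cdkn1b had the largest mean share of the inhibitor level in wild type, 50.3% ± 9.19, and Cdkn2d in -77-/-, 60.6% ± 2.76. In wild type replicate 3 alone Cdkn2d exceeded Cdkn1b, at 52.5% against 39.9%. Cdkn1a went from 11.3% ± 3.30 to 16.1% ± 1.09. In wild type the order of levels per kb was Cdk4, Ccnd2 (505 ± 34.3), Cdk6, Ccnd3 (163 ± 19.3), Cdkn1b (88.0 ± 11.6), Cdkn2d (62.1 ± 31.5), Ccnd1 (57.0 ± 8.66), Cdkn1a (19.7 ± 4.86) and Cdkn2c (6.35 ± 8.55). Neighbours in that order overlapped for Cdkn1b and Cdkn2d, for Cdkn2d and Ccnd1, and for Cdkn1a and Cdkn2c. In -77-/- the order was Cdk4, Ccnd2 (498 ± 105), Ccnd1 (478 ± 98.3), Cdkn2d (446 ± 3.07), Cdk6, Ccnd3 (264 ± 34.8), Cdkn1b (159 ± 41.3), Cdkn1a (118 ± 4.28) and Cdkn2c (13.7 ± 9.09). There Ccnd2 overlapped Ccnd1, Ccnd1 overlapped Cdkn2d, Cdk6 overlapped Ccnd3, and Cdkn1b overlapped Cdkn1a. Per kb, Ccnd1 and Cdkn2d thus stood below Ccnd3 in wild type and above it in -77-/-. Not divided by length, neither mean exceeded that of Ccnd3 in -77-/- (Ccnd1 2252, Cdkn2d 703, Ccnd3 2319). Gene lengths come from one annotation and not from the transcripts used in these cells.

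Genes around the D cyclins were taken from 8 lists, read against the 16.9% and 15.2% of all genes called higher and lower. Of 23 tested cyclins, Cdks and their partners, 1 was higher and 9 were lower (median log2 fold change -0.23). Ccng2, an unconventional cyclin linked to arrest, rose from 303 ± 44.7 to 1189 ± 138. Ccne1, the cyclin E1 that acts with Cdk2 after cyclin D, fell from 2737 ± 245 to 927 ± 208 (log2 fold change -1.58, limma adjusted p = 3.2e-06). Cdk7, the catalytic subunit of the kinase that activates Cdks, fell from 1568 ± 128 to 774 ± 156, and Cks2, a small Cdk-binding protein, from 820.1 ± 184 to 475 ± 104. Cks2 lost its call when wild type replicate 1 (adjusted p = 0.0746 in limma) or -77-/- replicate 3 (0.0668) was left out. It kept its call in 13 of 16 other settings, with adjusted p from 0.0042 to 0.0889. The other 6 that fell were Cdk8, Ccna2, Cks1b, Ccnh, Cdc25a and Ccnb1, with log2 fold changes from -0.75 to -0.51. Cdk2 itself had 903 ± 34.4 and 1102 ± 209.0 normalized reads and did not pass. Of the 5 other Cdk inhibitors tested, Cdkn1c, Cdkn3, Cdk2ap1, Cables1 and Cables2, none passed in limma, edgeR or DESeq2 and 0 had an unadjusted limma p under 0.05, with log2 fold changes from -0.48 to 0.25. Cdkn2a and Cdkn2b were not analysed here.

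Among 20 genes of the retinoblastoma and E2F group, which acts downstream of the D cyclin kinases, 3 were higher and 4 lower (median -0.10). Foxm1, an activator of mitotic genes, rose from 742 ± 95.1 to 1317 ± 87.6, and the atypical repressors E2f8 and E2f7 rose from 1349 ± 13.5 to 2043 ± 136 and from 361 ± 28.2 to 603 ± 157. E2f7 lost its call when any of 4 libraries was left out. In limma these were wild type replicates 1 (adjusted p = 0.0921) and 2 (0.0516), and -77-/- replicates 2 (0.155) and 3 (0.132). E2f7 kept its call in 10 of 16 other settings, with adjusted p from 0.0065 to 0.155. Tfdp2, a dimerisation partner of E2F factors, fell from 1899 ± 206 to 463 ± 107, and E2f4, the main E2F bound by pocket proteins in resting cells, fell from 2099.6 ± 255 to 769 ± 145. E2f6 fell from 1395 ± 139 to 639.5 ± 71.4. Lin52, of the DREAM complex, had a log2 fold change of -0.92 (limma adjusted p = 0.037). Its call was lost when any single wild type library was left out (0.0813, 0.0593 and 0.0877). The same held for -77-/- replicate 1 or 2 (0.124 and 0.0749). Lin52 kept its call in 8 of 16 other settings, with adjusted p from 0.0217 to 0.124. Rb1, the retinoblastoma gene, had 1009 ± 144 and 801 ± 122 and did not pass (log2 fold change -0.33, limma adjusted p = 0.158).

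Of 22 genes for turnover and assembly of D cyclins and p27, 2 were higher and 6 lower (median -0.22). Ubac1 and Rnf123, the subunits of the KPC ubiquitin ligase that acts on p27, fell from 2149 ± 101 to 559 ± 84.3 and from 949 ± 95.3 to 352 ± 59.3. Cdkn1b RNA was higher in the same libraries, and p27 protein was not measured. Fbxo31, an F-box protein described for cyclin D1, had 92.4 ± 56.4 and 15.1 ± 8.76 (log2 fold change -2.58, limma adjusted p = 0.0265). It lost its call when wild type replicate 1 (0.0677), wild type replicate 3 (0.0912) or -77-/- replicate 1 (0.0627) was left out. Fbxo31 kept its call in 11 of 16 other settings, with adjusted p from 0.0057 to 0.0912. Cul4a, Skp1a and Ddb1 had log2 fold changes of -0.87, -0.74 and -0.41 and passed. Csnk1e, a casein kinase, rose from 291 ± 69.6 to 550.3 ± 73.3. Trim21, a ubiquitin ligase, had 126 ± 74.8 and 303 ± 38.2 (limma adjusted p = 0.0311). Its call was lost when any single -77-/- library was left out (0.0637, 0.0969 and 0.0928). Trim21 kept its call in 11 of 16 other settings, with adjusted p from 0.0167 to 0.14.

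Upstream regulators of the members moved in both directions: 11 of 32 were higher (34.4%) and 10 lower (31.2%), with a median of 0.14. Mycl1, a Myc family member, went from 21.1 ± 15.9 to 228 ± 64.6 and Cebpa, a myeloid factor, from 93.4 ± 21.0 to 1289 ± 120.2. Klf1 and Gata1, the erythroid factors, had log2 fold changes of -5.49 and -4.01. Gata1 lost its call on leaving out -77-/- replicate 3 (adjusted p = 0.0585 in limma, with 6.6e-08 to 0.0585 over all settings). Klf1 and Gata1 are themselves among the 14 erythroid markers summed above, so their direction adds nothing to that sum. Cebpa, which is in no marker list, moved in the direction of the monocyte and macrophage sum. The part of these cell types was not tested. Myc, Notch1 and Trp53 were chosen after their values were seen. Notch1, a described activator of Ccnd1, rose from 167 ± 19.7 to 1919 ± 240.2. Whether Notch1 or any other listed regulator changed the members was not tested. Myc, which binds E boxes, fell from 1044 ± 166 to 625 ± 145. Trp53, which encodes p53, fell from 1879 ± 368 to 1069 ± 195 (log2 fold change -0.81, limma adjusted p = 0.0018). Myc and Trp53 each kept their call in 15 of 16 other settings, with adjusted p up to 0.0866 and 0.0614.

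Other p53 targets, which share with Cdkn1a a described regulator, were called at about the shares of all genes. Of 22 tested, 4 were higher (18.2%) and 3 lower (13.6%), against 16.9% and 15.2%, with a median of 0.03. Pmaip1, which encodes Noxa, rose from 386 ± 76.2 to 2828 ± 232, Trp53inp1 from 46.5 ± 21.5 to 317 ± 63.0, Plk2 from 136 ± 9.23 to 837 ± 188, and Btg2, an antiproliferative gene, from 393 ± 124 to 1549.9 ± 415. Sesn2 and Gadd45a were lower, with log2 fold changes of -1.70 and -1.24, and Aen fell from 1096 ± 216 to 542 ± 60.6. Mdm2, which encodes the ligase that degrades p53 and was chosen after its values were seen, had 1344 ± 142 and 1664 ± 157, a log2 fold change of 0.31 with an interval of 0.01 to 0.61, and did not pass (limma adjusted p = 0.104).

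Of 27 tested genes that E2F activates for S phase, none was higher and 6 (22.2%) were lower in limma (median -0.13), with 1 higher at an unadjusted p under 0.05 and 0 higher in edgeR and DESeq2. In 13 of the 27 every -77-/- library lay below every wild type library, against 21.4% of all genes tested. Rfc4, of the clamp loader, fell from 1126 ± 81.3 to 644 ± 40.1. Rrm1, Cdt1 and Fen1 had log2 fold changes of -0.46, -0.44 and -0.39. Rrm1 and Cdt1 each kept their call in 15 of 16 other settings, with adjusted p up to 0.0746 and 0.0688. Fen1 lost its call when wild type replicate 2 (adjusted p = 0.0554 in limma), wild type replicate 3 (0.0668) or -77-/- replicate 3 (0.0585) was left out. It kept its call in 12 of 16 other settings, with adjusted p from 0.0042 to 0.151. Of 18 mitotic markers 1 was higher and 2 were lower (median -0.22). Kif23 rose from 1536 ± 311 to 2357 ± 224, and Hmmr fell from 3668 ± 143 to 2321 ± 86.4. Mki67, the Ki-67 gene, fell from 35936 ± 4665 to 25654 ± 1385. Kif23 and Mki67 each kept their call in 15 of 16 other settings, with adjusted p up to 0.0804 and 0.091. With the median fold change of all genes set to 0, a shift of 0.10, the lower counts became 10 of the S phase list and 9 of the mitotic list. In limma without trend and robust variances they became 1 and 1. Without wild type replicate 2 the S phase count was 3, and without -77-/- replicate 1 the mitotic count was 4. Libraries of the whole gate were measured, so cell cycle phase was not measured.

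**Figure D4:**
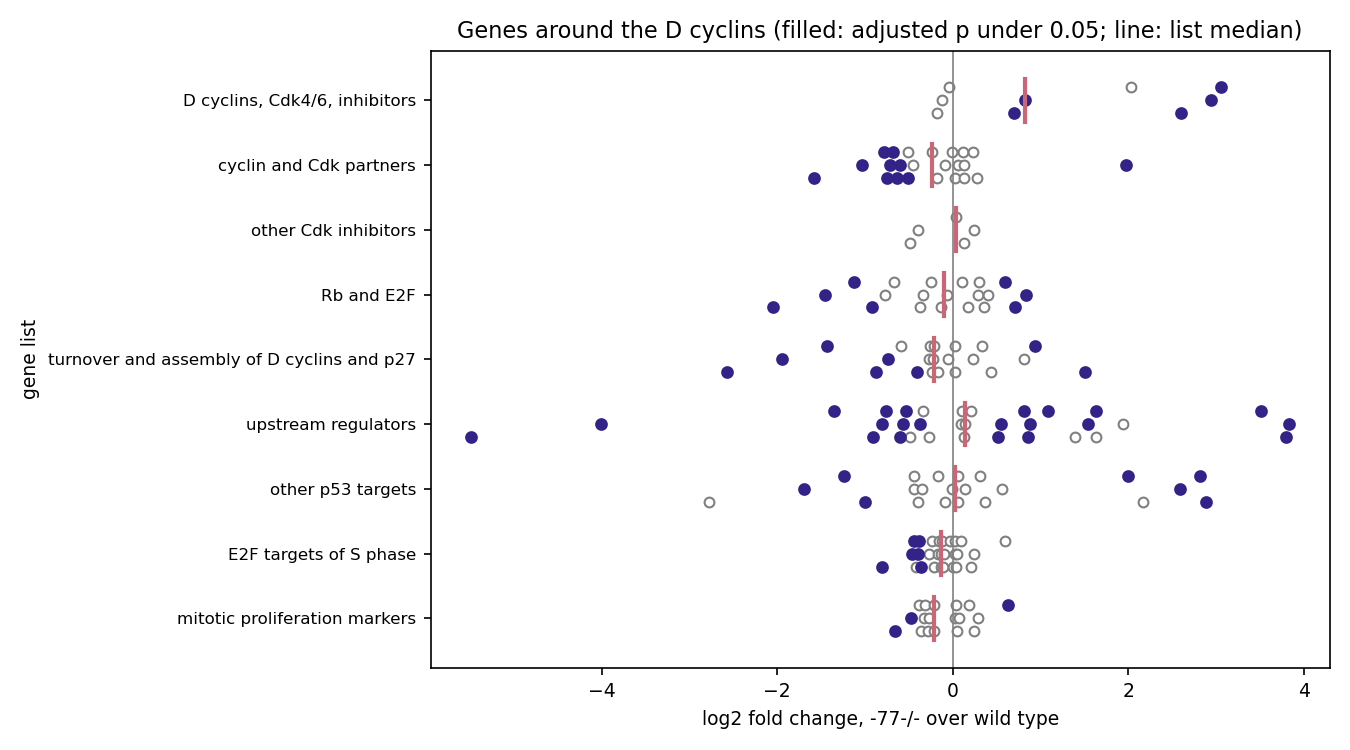
Log2 fold change of every tested gene (points) in the 9-gene set and in 8 lists around it, filled where the adjusted p is under 0.05, with a red line at each list's median. The set's median is 0.83, and those of the 8 lists lie between -0.23 and 0.14.

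Expression patterns most like each D cyclin were sought over the 6 libraries among 9736 genes with a mean of at least 100, by Pearson's r of log2(value + 1), as a description with no test. For Ccnd1 these were Nfatc1 (r = 0.999), a calcium-regulated transcription factor, and Dcp2 (r = 0.999), the mRNA decapping enzyme, and 856 genes had r over 0.95. For Ccnd3 they were Smpd2 (r = 0.994), a sphingomyelinase, and Maged1 (r = 0.992), with 156 genes over 0.95. For Ccnd2 they were Atxn3 (r = 0.971) and Nadk (r = 0.969), an NAD kinase, the 2 genes over 0.95. In Ccnd1 and Ccnd3 most of the variation over libraries is the difference between genotypes, so any gene with a like difference has a high r.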

How the data were processed

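RNA was measured in 6 libraries, 3 per genotype, grouped by the genotype label. Replicate numbers were assigned here only to tell libraries of a genotype apart. Per the labels' protocols, 10 ng of total RNA went into NuGEN Ovation libraries, read over 50 nt from 1 end. The tools named per the submitters' processing notes are STAR 2.5, RSEM 1.2.31, Bowtie and DESeq2, with the mm9 build. Gene annotation and strand are not given in the sources used here. Per gene, the deposited table holds a normalized signal for each library, which the authors made by dividing counts by a size factor, since within a library 100% of values below 100000 reads were whole multiples of 1 step (tolerance 0.01 of a read). It also holds the authors' log2 fold changes, their standard errors (entered as a score) and p-values, used here for comparison only. Dividing by the step gave recovered reads. If these came from RSEM they are rounded estimates, and a 0 need not mean no read.

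Of 19444 rows, 8 with displaced cells were left out. Genes with a mean of at least 10 in the higher genotype (15821) were tested with limma 3.58.1 in R 4.3.3, with trend and robust variances, on log2(value + 1). The added 1 shrinks log2 ratios of low values, but a difference of mean logs can still exceed the log2 of a ratio of means. Cdkn2c, with 1 wild type library at 0, had 2.03, against a ratio of means of 2.16 and 1.11 on the log2 scale in the authors' deposited table. edgeR had been written down as the test for counts, but the table held normalized values, so edgeR 4.0.16, DESeq2 1.42.0 and limma-voom on the recovered reads served as alternatives, beside other pseudocounts, filters and scalings and leaving out each library. The fits were tested on simulated data. Lengths are the union of exons in GENCODE M21 (GRCm38), and overlaps between genes come from it. The members and gene lists were chosen with earlier results of these data known. Named are all members, in each list the 4 genes with the largest change past the threshold and any group of 5 or fewer that makes a count, and per D cyclin the 2 genes most alike. Reads were amplified and carry no molecular identifiers, so they do not count molecules. No protein sequences were used here.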

Additional observations from a re-analysis of the deposited data

How the results depend on the processing

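Over 16 other settings (10 of processing, 6 leaving out 1 library each) no member was lower, and 5 were higher, or 4 where Cdkn1b lost its call (leaving out 1 library gave 4 to 5). Of 143 single values for members, 138 kept their direction and call, as did 649 of 688 for the other named genes, with none reversed. Ccnd2 ran from -0.20 to 0.10 when 1 library was left out, turning to 0.009 without wild type replicate 2 and to 0.10 without -77-/- replicate 2. The difference in the Cdkn2c to Cdkn2d ratio turned to 0.18 with a pseudocount of 0.1 and to 0.60 without wild type replicate 1, with -2.74 to 0.60 when 1 library was left out. The lower count of the retinoblastoma and E2F list was 7 with a mean of at least 50 and 7 with the median fold change set to 0, which also gave 10 for S phase and 9 for mitotic genes. In limma without trend and robust variances the lower counts were 6 for upstream regulators, 1 for S phase genes and 1 for mitotic genes, and the higher counts 1 for turnover genes and 0 for mitotic genes. edgeR gave 1 higher turnover gene, and a pseudocount of 5 or no filter gave 1 higher S phase gene. Not divided by length, the D cyclin shares were 4.15% and 24.2% for Ccnd1, 73.7% and 50.4% for Ccnd2, and 25.4% for Ccnd3 in -77-/-. The causes were not tested. Leaving out 1 library gave 1 to 2 higher turnover genes, 0 to 1 higher and 3 to 7 lower S phase genes, and 1 to 2 higher and 2 to 4 lower mitotic genes.

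Cdkn2c had 0 to 46 recovered reads per wild type library and 9 to 65 per -77-/- library, and whether depth or library spread sets its wide interval was not tested. With 3 libraries per genotype, an exact test of a single ratio cannot go below 0.1. No paired analysis was possible because the labels name no pairs or litters, and the replicate numbers used here, which the labels do not give, imply no pairing.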
